A study of Homo sapiens with 9 samples.

Results

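The genes described here are 39 genes of the hypoxia response and of glycolysis, read in A549 cells after treatment with the ferroptosis inducer RSL3, with or without the ferroptosis inhibitor ferrostatin-1 (Fer-1). They were chosen by name, with earlier results of these data known, so counts of calls among them are a description. Each gene was taken as the locus of the deposited table whose gene name includes it, and where several loci carried the name, as the one with the most counts. All 39 were found among 41948 named loci. Of these, 19 are hypoxia genes outside glycolysis (HIF1A, EPAS1, EGLN1, EGLN3, P4HA1, P4HA2, KDM3A, ADM, VEGFA, STC1, LOX, CA9, CA12, NDRG1, ANKRD37, ERO1A, MXI1, BHLHE40 and AK4). The other 20 carry sugar and lactate across the membrane or run and regulate glycolysis (SLC2A1, SLC2A3, SLC16A3, HK1, HK2, GPI, PFKL, PFKP, ALDOA, ALDOC, TPI1, PFKFB3, PFKFB4, GAPDH, PGK1, PGAM1, ENO1, ENO2, PKM and LDHA).

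As background, the hypoxia inducible factors are transcription factors made of an oxygen-sensitive alpha subunit, encoded by HIF1A or EPAS1, and a stable beta subunit, ARNT or ARNT2. With oxygen and iron present, the prolyl hydroxylases EGLN1 and EGLN3 mark the alpha subunit, and the VHL ubiquitin ligase then removes it. When the hydroxylases are slowed, the alpha subunit is stable and the factor switches on genes for angiogenesis, pH control, glucose uptake and glycolysis. RNA levels read the output of this system and not the stability of the alpha protein.

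A549 is an established human lung adenocarcinoma cell line, here kept in DMEM with 10% fetal bovine serum. One group received RSL3 at 2 µM together with Fer-1 at 5 µM, one received RSL3 at 2 µM alone, and one received the vehicle DMSO, each for 24 h and with 3 libraries of total RNA. RSL3 inactivates the lipid peroxidase GPX4, and Fer-1 traps lipid radicals. The stated aim of the series was to find messenger and long noncoding RNAs tied to ferroptosis. There was no arm kept at low oxygen and none given Fer-1 alone. Nothing in the labels says that the 3 libraries of one group are separate cultures, and the p-values therefore measure the spread between these samples, which may be technical.

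Library totals ran from 43815904 to 45855255 counts with RSL3 plus Fer-1, from 39143521 to 40693436 with RSL3 and from 40549601 to 43393109 with DMSO. Levels are CPM, the counts of a locus relative to the TMM-scaled sum of the library's counts over the 17297 tested loci. Each is the value of a whole locus. Of 7 epithelial or A549 markers, KRT7, KRT8 and KRT18 summed with KRT19, CDH1 and AKR1B10 to 2197 to 2285 CPM with RSL3 plus Fer-1, 2211 to 2399 CPM with RSL3 and 2463 to 2504 CPM with DMSO. Of the 3 tested, KRT7 and KRT8 were lower with RSL3 than with DMSO (log2 change -0.13 and -0.093, adjusted p = 0.00313 and 0.0442, edgeR). With RSL3 plus Fer-1 all 3 were called lower than with DMSO (log2 change -0.17 to -0.12, edgeR). KRT19, CDH1 and AKR1B10 stood at or near 0 (at most 1.58 CPM), and no locus named EPCAM was found among those read here. A549 cells usually express KRT19, CDH1 and AKR1B10, so these levels go against the label and the reason was not tested. The 6 fibroblast markers summed to 12.5 to 13.6 CPM with RSL3 plus Fer-1, to 13.2 to 18.9 CPM with RSL3, and to 102, 130.1 and 16.6 CPM in DMSO replicates 1, 2 and 3. DMSO replicates 1 and 2 therefore stood apart in collagen transcripts, and results against DMSO are also given without them. Their part in those results was not tested. The 4 endothelial markers summed to 3.67 to 5.84 CPM with RSL3 plus Fer-1, 6.4 to 7.38 CPM with RSL3 and 3.71 to 5.34 CPM with DMSO. EGFL7, the 1 tested, was higher with RSL3 than with DMSO (log2 change 0.91, adjusted p = 0.00745, edgeR) and did not pass for RSL3 plus Fer-1 against RSL3 (-0.75, adjusted p = 0.0544), although those groups did not overlap. It thus had the same signs as most of the genes described here, and its part in their results was not tested. VWF and CDH5 were at or near 0 in every library (at most 0.402 and 0.513 CPM), and PECAM1 was at most 2.13 CPM. The 5 blood markers summed to 560.5 to 565 CPM with RSL3 plus Fer-1, 543 to 597.5 CPM with RSL3 and 562 to 582 CPM with DMSO, nearly all of it from CD68, whose locus is joined with EIF4A1, while each of the others was at most 3.24 CPM. In a bulk sample, fewer cells of a type and less RNA per cell cannot be told apart.

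Promoter sequence is given as a description. These genes were listed as hypoxia and glycolysis genes, so an excess of the hypoxia core among them is not independent support. In RefSeq promoter windows on GRCh38.p14, from 250 bases before to 50 bases after each start, 35 of the 39 genes had 63 windows. The hypoxia response core was searched as ACGTG or GCGTG on both strands, which also finds the E-box CACGTG because that motif contains ACGTG on either strand. It occurred in 48 of 63 windows, or 76.2%, against 48.4% of all 35116 windows in the table. Those windows were not matched to these genes in expression, base composition or windows per gene. ACGTG alone occurred in 42.9% of the genes' windows and 21.4% of all windows. The 4 promoters that follow are shown because CA9 had the largest called rise, BHLHE40 was raised with and without Fer-1, ALDOC rose most among the upper glycolytic enzymes, and LDHA was not raised. Each run covers the 250 bases before the start, 5′ to 3′ on the gene's strand, and capitals mark the core on either strand.
CA9, chr9:35673678-35673927, + strand: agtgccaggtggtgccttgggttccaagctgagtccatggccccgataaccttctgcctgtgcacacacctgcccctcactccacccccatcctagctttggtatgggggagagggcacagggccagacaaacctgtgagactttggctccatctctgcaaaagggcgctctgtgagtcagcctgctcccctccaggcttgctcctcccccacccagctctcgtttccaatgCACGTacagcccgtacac
BHLHE40, chr3:4979187-4979436, + strand: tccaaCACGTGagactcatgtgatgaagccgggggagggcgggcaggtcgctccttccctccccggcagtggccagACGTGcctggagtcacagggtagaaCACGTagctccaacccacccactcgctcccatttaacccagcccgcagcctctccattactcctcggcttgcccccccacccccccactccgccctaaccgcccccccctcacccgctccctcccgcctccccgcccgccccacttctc
ALDOC, chr17:28576896-28577145, - strand: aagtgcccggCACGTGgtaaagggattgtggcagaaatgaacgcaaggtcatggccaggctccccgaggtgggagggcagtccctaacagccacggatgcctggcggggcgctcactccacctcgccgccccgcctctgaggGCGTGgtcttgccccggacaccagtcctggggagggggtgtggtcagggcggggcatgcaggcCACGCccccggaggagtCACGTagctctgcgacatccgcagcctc
LDHA, chr11:18394313-18394562, + strand: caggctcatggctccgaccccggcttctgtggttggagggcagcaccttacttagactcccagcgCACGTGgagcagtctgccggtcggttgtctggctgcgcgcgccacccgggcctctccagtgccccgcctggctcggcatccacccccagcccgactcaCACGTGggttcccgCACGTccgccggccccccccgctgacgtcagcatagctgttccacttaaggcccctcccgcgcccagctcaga
CA9 had 1 match, which begins 18 bases before the start. LDHA had 5 matches and ALDOC had 5, with each CACGTG counted on both strands, and BHLHE40 had 4. LDHA has another window in the table, which is not shown. A match is a run of letters and not evidence of binding.

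RSL3 raised most of these genes. Compared with DMSO, 29 of the 37 tested loci were higher and 0 were lower at an adjusted p under 0.05 (edgeR's quasi-likelihood test, adjusted by Benjamini-Hochberg over 17297 loci). Over all tested loci 16.5% were called, 9.04% higher and 7.46% lower. The share called higher was 13.7% over protein-coding loci and 18.2% over loci with a mean of at least 100 CPM. In 32 of the 37 loci all 3 RSL3 libraries lay above all 3 DMSO libraries and in 1 they all lay below, against 15.8% and 14.9% of all tested loci. At an unadjusted p under 0.05, 1 locus was lower, and DESeq2 also called 1 lower. That locus, on the strand opposite to EGLN3, is described with the dioxygenases. STC1 and CA12 were under the limit on low values (FPKM of at least 1 in at least 3 libraries) and were not tested.

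**Figure D1:**
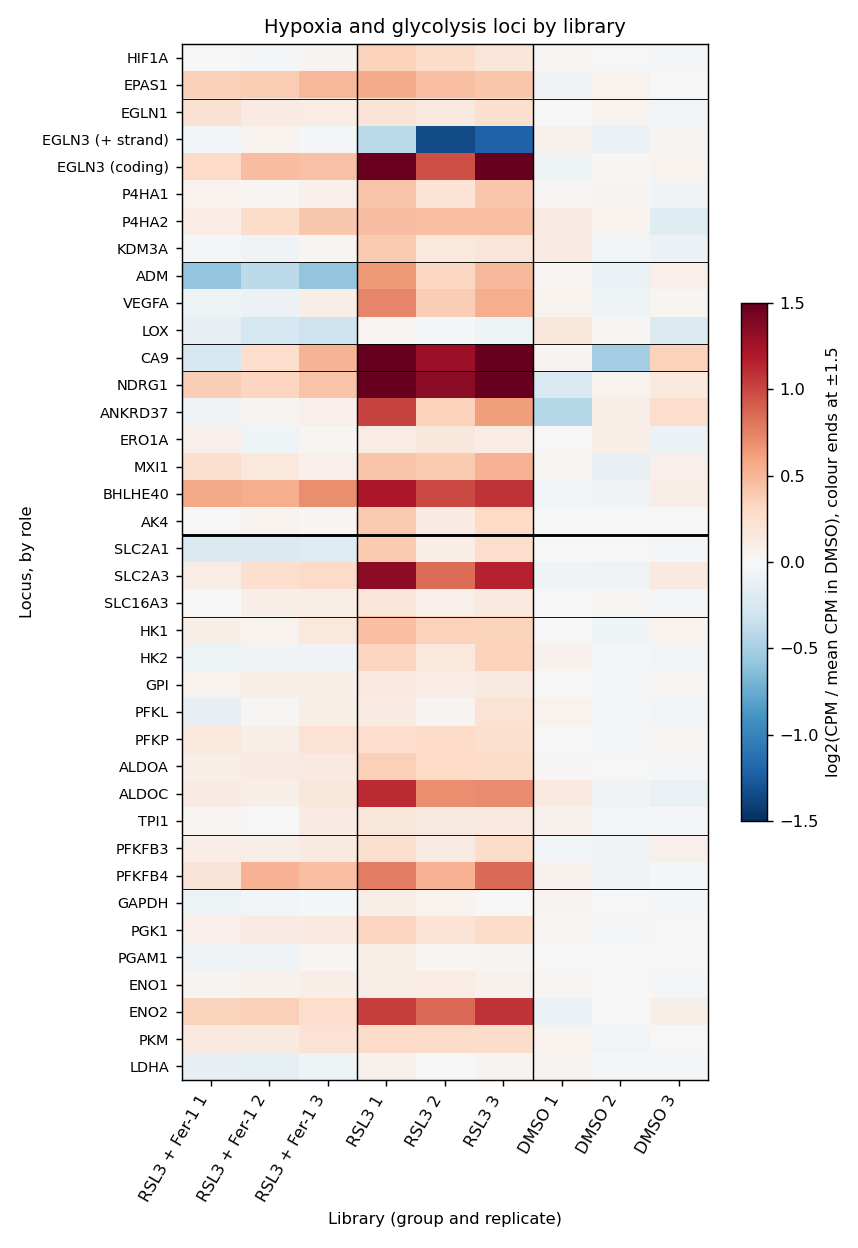
Heat map of the tested loci (rows, grouped by role, other hypoxia genes above the thick line and glycolysis genes under it) in the 9 libraries (columns, group and replicate). Colour is log2 of CPM over the mean CPM of the DMSO libraries, and ends at ±1.5. The RSL3 columns are red in nearly every row, the + strand EGLN3 locus is blue there, and the RSL3 plus Fer-1 columns are pale except in rows such as EPAS1, BHLHE40 and ADM.

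Both alpha subunits were raised by RSL3 at the RNA level. HIF1A (chromosome 14, 61695513 to 61796910, + strand) stood at 387, 379 and 395 CPM with RSL3 plus Fer-1, 487, 466 and 435 CPM with RSL3 and 389, 385 and 379.7 CPM with DMSO. Its RSL3 libraries lay above all 6 others, which overlapped each other, and the log2 change against DMSO was 0.27 (SE 0.037, adjusted p = 4.38e-06). EPAS1, which encodes HIF-2 alpha (chromosome 2, 46293667 to 46382598, + strand), stood at 113, 115 and 126 CPM with RSL3 plus Fer-1, 130.2, 122 and 118 CPM with RSL3 and 85.5, 92.2 and 88.5 CPM with DMSO. Here the libraries with RSL3 plus Fer-1 overlapped those with RSL3, and both groups lay above DMSO, with a log2 change of 0.48 (SE 0.051, adjusted p = 1.06e-07) for RSL3. The HIF1A locus also carries the name SNAPC1, so its value is that of the joined locus. The loci of EGLN1, SLC16A3, GPI, PFKP and ALDOA likewise carry other names.

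Among the oxygen-dependent dioxygenases, EGLN1, P4HA1, P4HA2 and KDM3A rose with RSL3. P4HA2, an alpha subunit of collagen prolyl 4-hydroxylase (chromosome 5, 132191559 to 132295315, - strand), stood at 30.1, 33.7 and 36.8 CPM with RSL3 plus Fer-1, 38.6, 38 and 38.2 CPM with RSL3 and 30.3, 28.8 and 24.5 CPM with DMSO. All RSL3 libraries exceeded all DMSO libraries, and the log2 change was 0.46 (SE 0.085, adjusted p = 0.000281). P4HA1, the other such subunit, rose by 0.35 on the log2 scale (adjusted p = 7.07e-05). KDM3A, a histone demethylase, rose by 0.25 (adjusted p = 0.0107). EGLN1, the main HIF prolyl hydroxylase, rose by 0.19 (adjusted p = 0.00461).

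EGLN3, a prolyl hydroxylase that is itself a HIF target, was represented by loci whose RSL3 changes had opposite signs, of which that of the coding locus passed. The locus with the most counts under that name (chromosome 14, 34437414 to 34461905, + strand) lies on the strand opposite to the gene, has no coding transcript type and overlaps SPTSSA, which encodes a subunit of serine palmitoyltransferase. It stood at 105, 111 and 107 CPM with RSL3 plus Fer-1, 81.1, 42.4 and 46.4 CPM with RSL3 and 112, 101 and 111 CPM with DMSO. The RSL3 libraries lay below all 6 others, with replicate 1 nearer to them, and the log2 change was -0.93 (SE 0.25, adjusted p = 0.0523). The coding EGLN3 locus (chromosome 14, 33924227 to 34222953, - strand) stood at 11.5, 13 and 12.8 CPM with RSL3 plus Fer-1, 26.4, 18.5 and 28.2 CPM with RSL3 and 8.95, 9.55 and 9.8 CPM with DMSO. Its RSL3 libraries lay above all others, and the log2 change was 1.37 (SE 0.13, adjusted p = 1.39e-08).

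The opposite-strand EGLN3 locus was called lower without RSL3 replicate 1 (log2 change -1.28, adjusted p = 4.82e-14), while the coding locus was called higher without any 1 library (log2 change 1.25 to 1.53). SPTSSA stood at 63.1, 59.3 and 66.8 CPM with RSL3 plus Fer-1, 63.6, 97.2 and 101 CPM with RSL3 and 70.5, 84.7 and 87.1 CPM with DMSO, with RSL3 libraries that overlapped both other groups (log2 change of RSL3 against DMSO 0.11, adjusted p = 0.789). RSL3 replicate 1, which was highest of its group in the opposite-strand locus, was lowest in SPTSSA. Whether the libraries kept strand is not stated, so reads of overlapping loci on opposite strands may not be separated. With the coding locus in place of the opposite-strand one, 30 of 37 members were higher with RSL3.

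**Figure D2:**
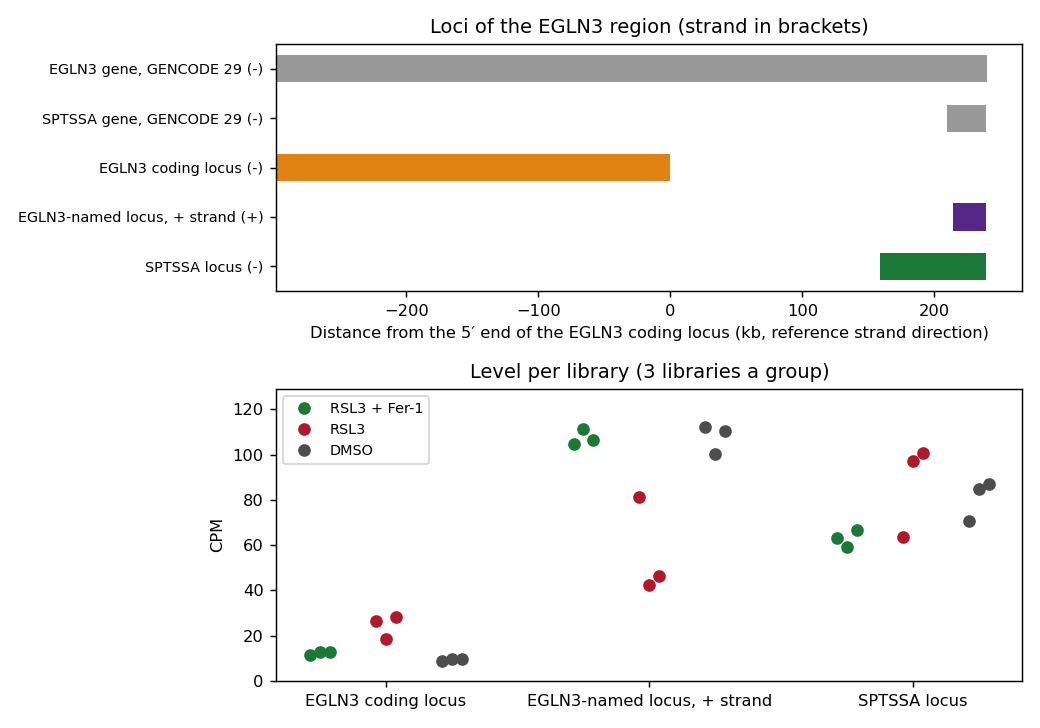
The upper panel maps loci and annotated genes around EGLN3, with distance in kb from the 5′ end of the coding locus. The lower panel gives CPM in each library (points) for the coding EGLN3 locus, the + strand locus of the same name and SPTSSA. The coding locus is highest with RSL3 (18.5 to 28.2 CPM) and the + strand locus is lowest with RSL3 (42.4 to 81.1 CPM).

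The secreted products VEGFA and ADM rose with RSL3 and LOX did not pass. VEGFA, the vascular endothelial growth factor (chromosome 6, 43770184 to 43786487, + strand), stood at 48.9, 48.5 and 55.2 CPM with RSL3 plus Fer-1, 85.4, 66.7 and 75.1 CPM with RSL3 and 53.3, 48.8 and 52.3 CPM with DMSO. The RSL3 libraries lay above the rest, and the log2 change against DMSO was 0.56 (SE 0.076, adjusted p = 1.06e-05). The gene of the vasodilator peptide adrenomedullin, ADM (chromosome 11, 10305073 to 10307397, + strand), stood at 7.88, 8.99 and 7.87 CPM with RSL3 plus Fer-1, 18.5, 14.6 and 16.6 CPM with RSL3 and 12.1, 11 and 12.5 CPM with DMSO. None of its groups overlapped, with RSL3 highest and RSL3 plus Fer-1 lowest, and the RSL3 change against DMSO was 0.48 (SE 0.12, adjusted p = 0.00672). LOX, which cross-links collagen, stood at 44.2, 40.0 and 38.7 CPM with RSL3 plus Fer-1, 49.2, 47.5 and 45.5 CPM with RSL3 and 53.9, 48.6 and 41.5 CPM with DMSO, with RSL3 and DMSO libraries overlapping (log2 change -0.019, adjusted p = 0.92). STC1, the glycoprotein hormone stanniocalcin-1, stayed between 0 and 1.42 CPM. The count of 0 in RSL3 plus Fer-1 replicate 3 allows up to 0.0654 CPM (3 counts over the full library total, counting error only).

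CA9 had the largest change of all 37 and also a wide spread. This membrane carbonic anhydrase, which acidifies the outside of hypoxic cells (chromosome 9, 35673918 to 35681159, + strand), stood at 3.23, 4.58 and 5.44 CPM with RSL3 plus Fer-1, 33.3, 9.31 and 27.7 CPM with RSL3 and 3.92, 2.68 and 4.84 CPM with DMSO. RSL3 replicate 2 was well under the other two RSL3 libraries, yet all RSL3 libraries lay above all others. The mean was 23.4 ± 12.5 CPM with RSL3 and 3.81 ± 1.08 CPM with DMSO (SD, n = 3 each), and the log2 change was 2.62 (SE 0.53, adjusted p = 0.0199) with a 95% interval of 1.32 to 3.91. The call was lost without DMSO replicate 1, 2 or 3 or RSL3 replicate 1 or 3 (adjusted p from 0.052 to 0.0774), while the log2 change stayed between 2.27 and 3.0. The related enzyme CA12 stood at 2.19, 2.36 and 2.1 CPM with RSL3 plus Fer-1, 1.5, 2.01 and 3.06 CPM with RSL3 and 2.96, 2.48 and 1.49 CPM with DMSO, with all groups overlapping.

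Among the other hypoxia targets, NDRG1 and BHLHE40 changed most. NDRG1, a stress-responsive gene raised by hypoxia and by iron chelation (chromosome 8, 133237175 to 133302022, - strand), stood at 49.2, 47.9 and 51.4 CPM with RSL3 plus Fer-1, 162, 97.1 and 135 CPM with RSL3 and 32.7, 39.6 and 42.3 CPM with DMSO. The lowest RSL3 library was still above every other library, and the RSL3 change was 1.78 (SE 0.20, adjusted p = 0.00145). BHLHE40, a transcriptional repressor of the basic helix-loop-helix family (chromosome 3, 4979437 to 4985395, + strand), stood at 66.9, 66.2 and 73.3 CPM with RSL3 plus Fer-1, 105, 90.0 and 95.5 CPM with RSL3 and 43.9, 43.5 and 48.3 CPM with DMSO. Its groups were fully separated, with RSL3 plus Fer-1 between RSL3 and DMSO, and the RSL3 change of 1.1 (SE 0.064, adjusted p = 8.93e-13) had the smallest p of all 37 loci. MXI1, an antagonist of MYC, rose by 0.45 (adjusted p = 0.000673), and AK4, a mitochondrial adenylate kinase, rose by 0.28 (adjusted p = 0.00118). The endoplasmic reticulum oxidase ERO1A (0.13, adjusted p = 0.0645) and ANKRD37 (0.69, adjusted p = 0.0708) did not pass, although in both all RSL3 libraries lay above all DMSO libraries.

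**Figure D3:**
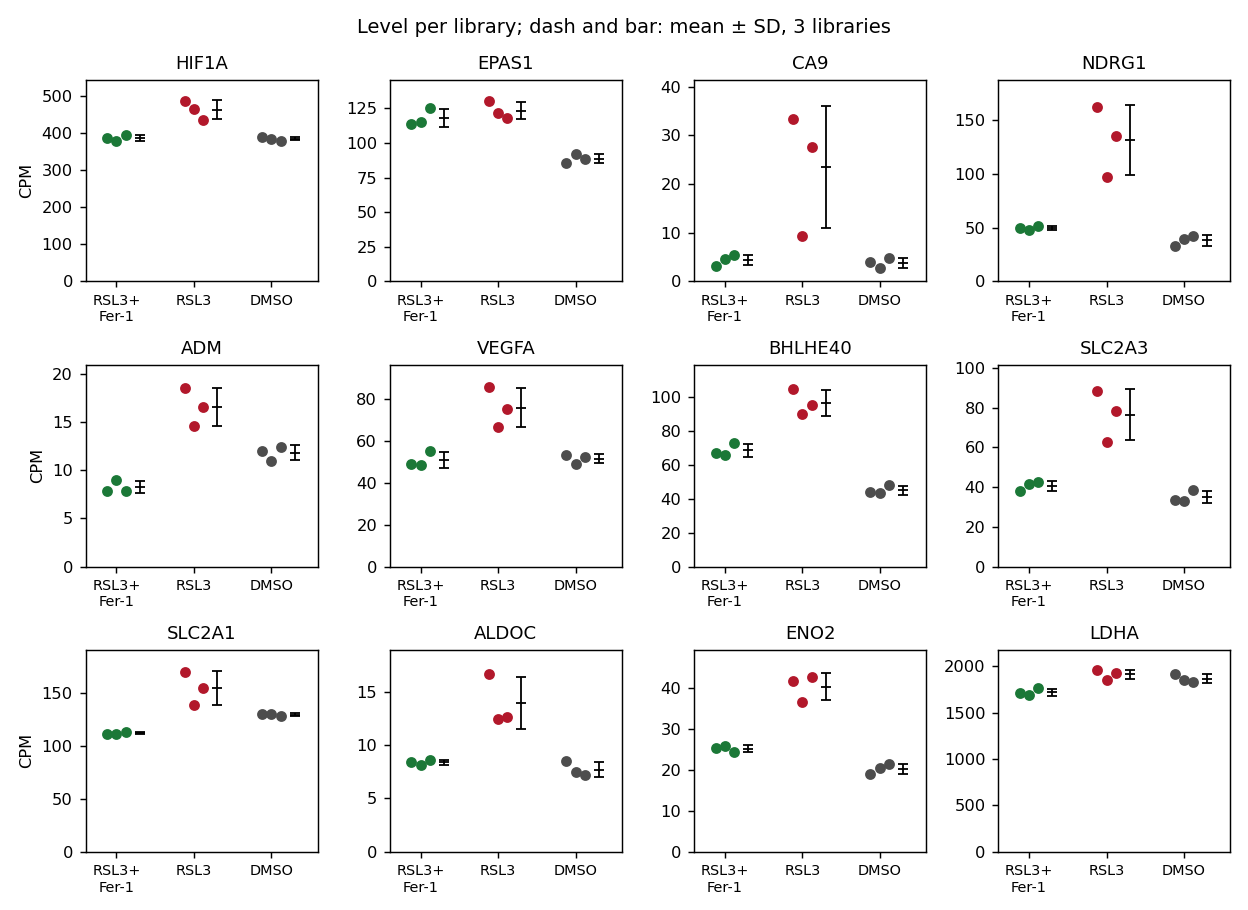
CPM in each library (points) of 12 loci, with the mean and SD of each group of 3 libraries (dash and bar). All axes start at 0. In 10 panels all RSL3 points lie above all others, while in EPAS1 they overlap RSL3 plus Fer-1 and in LDHA they overlap DMSO.

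All 3 transporters rose with RSL3. SLC2A3, the high-affinity glucose transporter GLUT3 (chromosome 12, 7919230 to 7936187, - strand), stood at 37.9, 41.6 and 42.6 CPM with RSL3 plus Fer-1, 88.6, 62.9 and 78.2 CPM with RSL3 and 33.5, 33.2 and 38.5 CPM with DMSO, so RSL3 was clear of both other groups. Its log2 change was 1.13 (SE 0.11, adjusted p = 1.80e-05). SLC2A1, the ubiquitous glucose transporter GLUT1 (chromosome 1, 42925353 to 42958893, - strand), stood at 112, 111 and 113 CPM with RSL3 plus Fer-1, 170.2, 139 and 155 CPM with RSL3 and 130.1, 130 and 128 CPM with DMSO. The groups were again fully separated, here with RSL3 plus Fer-1 lowest, and the RSL3 change was 0.26 (SE 0.053, adjusted p = 0.00103). SLC16A3, the lactate exporter MCT4, rose by 0.14 (adjusted p = 0.015).

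In upper glycolysis, from hexokinase to triosephosphate isomerase, 7 of 8 enzymes rose with RSL3 and PFKL did not pass. ALDOC, a fructose bisphosphate aldolase best known from brain (chromosome 17, 28573115 to 28576948, - strand), stood at 8.42, 8.18 and 8.65 CPM with RSL3 plus Fer-1, 16.7, 12.5 and 12.6 CPM with RSL3 and 8.51, 7.45 and 7.18 CPM with DMSO. RSL3 lay above both other groups, which overlapped, and the log2 change was 0.85 (SE 0.14, adjusted p = 6.05e-05). HK1, a hexokinase, which commits glucose to the cell (chromosome 10, 69269984 to 69401884, + strand), stood at 84.9, 82.8 and 88.5 CPM with RSL3 plus Fer-1, 109, 101 and 101 CPM with RSL3 and 80.2, 76.3 and 82.3 CPM with DMSO. RSL3 was again separate, with a log2 change of 0.38 (SE 0.053, adjusted p = 4.72e-06). The other called enzymes rose by 0.13 to 0.31 on the log2 scale: the main aldolase ALDOA by 0.31 (adjusted p = 2.38e-08), HK2 by 0.28 (adjusted p = 0.000309), the platelet-type phosphofructokinase PFKP by 0.26 (adjusted p = 3.33e-06), TPI1 by 0.15 (adjusted p = 0.00326) and GPI by 0.13 (adjusted p = 0.0025). PFKL, the liver-type phosphofructokinase, differed by 0.13 (adjusted p = 0.273).

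Both enzymes that make and break fructose 2,6-bisphosphate, the activator of phosphofructokinase, rose with RSL3. PFKFB4 (chromosome 3, 48517634 to 48563663, - strand) stood at 31.9, 39.9 and 38 CPM with RSL3 plus Fer-1, 47.4, 40.0 and 49.9 CPM with RSL3 and 29.1, 26.8 and 27.5 CPM with DMSO, and its log2 change was 0.72 (SE 0.088, adjusted p = 1.10e-06). PFKFB3 (chromosome 10, 6144934 to 6254644, + strand) stood at 89.9, 89.5 and 92 CPM with RSL3 plus Fer-1, 98.8, 91.2 and 102 CPM with RSL3 and 81.9, 81.1 and 88.8 CPM with DMSO, and its log2 change was 0.21 (SE 0.053, adjusted p = 0.00573). In both loci all RSL3 libraries lay above all DMSO libraries, by a narrow margin in PFKFB3. The PFKFB4 locus also carries the name UCN2.

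Lower glycolysis, from GAPDH to lactate dehydrogenase, was more divided, with 4 of 7 enzymes higher with RSL3. ENO2, the neuronal enolase (chromosome 12, 6873389 to 6923698, + strand), stood at 25.4, 25.7 and 24.2 CPM with RSL3 plus Fer-1, 41.5, 36.4 and 42.6 CPM with RSL3 and 18.8, 20.3 and 21.4 CPM with DMSO. RSL3 libraries were far above the DMSO ones and the log2 change was 0.99 (SE 0.083, adjusted p = 1.00e-09), but this locus is joined with LRRC23. PKM, pyruvate kinase (chromosome 15, 72199029 to 72231691, - strand), stood at 1653, 1641 and 1729 CPM with RSL3 plus Fer-1, 1825, 1819 and 1808 CPM with RSL3 and 1542, 1449 and 1485 CPM with DMSO, with 3 separate groups and a log2 change of 0.28 (SE 0.028, adjusted p = 2.37e-08). The kinase PGK1 rose by 0.27 (adjusted p = 2.16e-07) in a locus joined with ATP7A, and the main enolase ENO1 rose by 0.087 (adjusted p = 0.017).

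LDHA, which turns pyruvate into lactate and is often used as a hypoxia marker (chromosome 11, 18394560 to 18408425, + strand), stood at 1706, 1690 and 1762 CPM with RSL3 plus Fer-1, 1954, 1854 and 1924 CPM with RSL3 and 1917, 1848 and 1825 CPM with DMSO. The RSL3 and DMSO libraries overlapped, and the difference of 0.036 on the log2 scale (adjusted p = 0.463) had a 95% interval of -0.022 to 0.093. GAPDH differed by 0.047 (adjusted p = 0.272, interval -0.0078 to 0.10) and the mutase PGAM1 by 0.054 (adjusted p = 0.317, interval -0.014 to 0.12). Several of these enzymes have processed pseudogenes or close paralogs, among them GAPDH, PGK1, ENO1, LDHA, PKM, TPI1, PGAM1 and ALDOA, and how the authors' counting shared such reads is not given in the sources used here.

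Per transcript length, the glycolysis loci with the largest relative rise were among the least abundant. ENO2, PFKFB4, ALDOC and SLC2A3 had mean levels in DMSO of 1.69, 1.83, 2.41 and 4.74 FPKM and RSL3 changes of 0.72 to 1.13 on the log2 scale. GAPDH, LDHA, ENO1 and TPI1 had mean levels in DMSO of 1002, 254, 195 and 184 FPKM and changes of 0.036 to 0.15. Low level alone did not go with a large rise, since PFKFB3 and PFKL at 2.75 and 3.22 FPKM changed by 0.21 and 0.13. High level alone did not go with a small rise either. PKM and ALDOA at 143.5 and 79.5 FPKM changed by 0.28 and 0.31, and PGAM1 at 130.5 FPKM by 0.054. The ENO2 and PFKFB4 loci also carry other names, so their FPKM is that of the joined locus. Whether the difference between isoenzymes such as ENO2 and ENO1 exceeds their error was not tested.

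**Figure D4:**
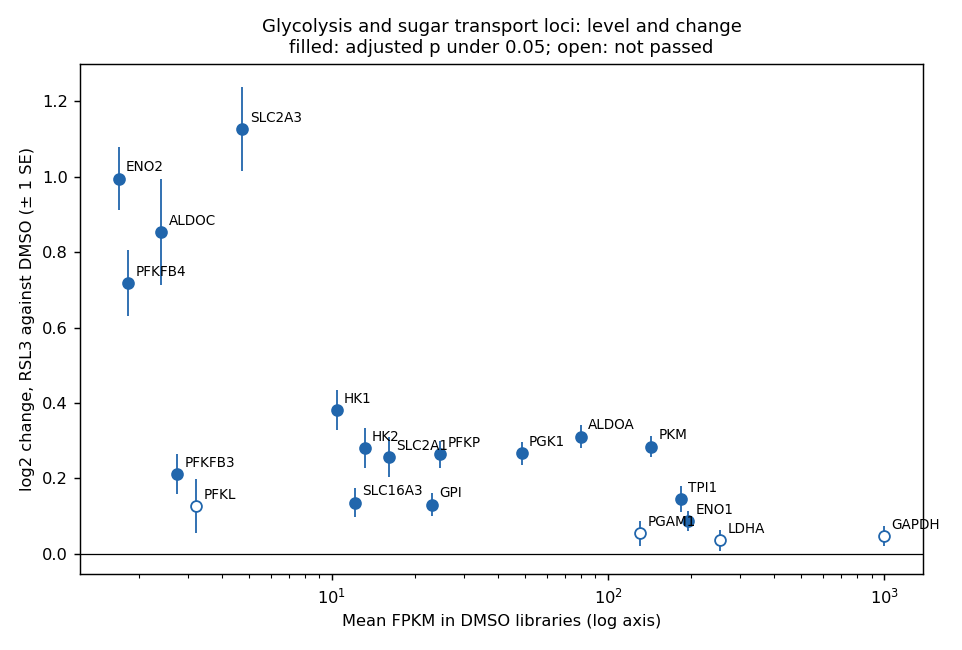
Log2 change of RSL3 against DMSO (edgeR, point with 1 SE either side) of the 20 glycolysis and transport loci, against their mean FPKM in the DMSO libraries on a log axis. Filled points passed an adjusted p of 0.05. ENO2, PFKFB4, ALDOC and SLC2A3 lie at the upper left, and GAPDH and LDHA lie near 0 at the right.

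Set side by side, glycolysis had the smaller median change. The median RSL3 change against DMSO was 0.26 on the log2 scale over the 20 glycolysis loci, with 16 higher, and 0.45 over the 17 other tested hypoxia loci, with 13 higher. The median over all tested loci was -0.0065. The 15 glycolytic enzymes without transporters and PFKFB regulators had a median of 0.26, with 11 higher. No test was made of the difference between the medians, and the genes within each are not independent replicates.

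Other genes of the pathway, outside the 39, were read from 3 lists. Of 12 tested HIF pathway regulators, 1 rose with RSL3 and 0 fell, or 2 in each direction at an unadjusted p under 0.05. That share, 8.33%, is close to the 9.04% of all tested loci called higher. The called one was ARNT2, a beta subunit (chromosome 15, 80404350 to 80597933, + strand), with 10.4, 11.1 and 10.1 CPM with RSL3 plus Fer-1, 16.5, 18.9 and 16.8 CPM with RSL3 and 5.36, 5.32 and 5.88 CPM with DMSO and a log2 change of 1.66 (SE 0.13, adjusted p = 2.32e-10). RBX1 and CREBBP, a ubiquitin ligase subunit and a coactivator, had the next largest differences and did not pass (-0.15 and -0.14, adjusted p = 0.251 and 0.0969). ARNT itself differed by 0.04 (adjusted p = 0.755) and VHL by 0.031 (adjusted p = 0.788).

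Of 17 tested further hypoxia targets, 8 rose with RSL3 and 0 fell, or 11 and 1 at an unadjusted p under 0.05. The shares called over all tested loci were 9.04% higher and 7.46% lower. ANGPTL4, a lipoprotein lipase inhibitor, stood at 4.74, 6.31 and 5.37 CPM with RSL3 plus Fer-1, 17.1, 13.8 and 13.7 CPM with RSL3 and 2.75, 2.51 and 1.56 CPM with DMSO, and its log2 change was 2.71 (SE 0.19, adjusted p = 4.34e-11). BNIP3L, a mitophagy receptor, stood at 28.1, 25 and 25.2 CPM with RSL3 plus Fer-1, 52.8, 37.7 and 46.7 CPM with RSL3 and 26.1, 26.1 and 31.2 CPM with DMSO, and its log2 change was 0.72 (SE 0.11, adjusted p = 7.04e-05). In both loci the RSL3 libraries lay above every other library, and BNIP3, PDK1, INSIG2, GBE1 and TMEM45A were also called.

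Of 7 tested further glycolysis genes, 1 rose with RSL3 and 2 fell, against 9.04% and 7.46% of all tested loci. HKDC1, a protein with hexokinase domains, stood at 7.42, 6.83 and 7.6 CPM with RSL3 plus Fer-1, 12.4, 13.4 and 10.8 CPM with RSL3 and 1.84, 2.41 and 1.89 CPM with DMSO, and its log2 change was 2.58 (SE 0.17, adjusted p = 8.73e-12), larger than that of either hexokinase above. BPGM, which makes 2,3-bisphosphoglycerate, differed by 0.31 (adjusted p = 0.164) and PFKFB2 by 0.15 (adjusted p = 0.171). The lactate dehydrogenase subunit LDHB, in a joined locus, changed by -0.10 (adjusted p = 0.0182), and the lactate transporter SLC16A1 by -0.12 (adjusted p = 0.0189). Both are among the loci with a mean of at least 100 CPM, of which 24.6% were called lower.

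Some of these RSL3 calls were lost when 1 library was left out, with the sign of the change kept. KDM3A was lost without DMSO replicate 2 or 3 or RSL3 replicate 1 (adjusted p from 0.0523 to 0.12), SLC16A3 without DMSO replicate 3 or RSL3 replicate 1 (0.0581 and 0.085), ENO1 without DMSO replicate 2 or 3 or RSL3 replicate 2 (0.0508 to 0.069), and ADM without RSL3 replicate 1 (0.0572). Conversely, ERO1A passed without DMSO replicate 2 (adjusted p = 0.0169) and ANKRD37 without RSL3 replicate 2 (0.0463). Without DMSO replicates 1 and 2, the libraries rich in collagen transcripts, 22 of 37 loci were higher and 0 lower, with the lone DMSO library assumed to vary like the others. The calls lost there were ADM, CA9, NDRG1, MXI1, SLC16A3, GPI, PFKFB3 and ENO1 (adjusted p from 0.0608 to 0.338), and ERO1A was gained (adjusted p = 0.0253).

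The comparison of RSL3 plus Fer-1 with RSL3 asks which levels differ when a lipid radical trap is present during RSL3 treatment. With RSL3 plus Fer-1, 21 of the 37 loci were lower than with RSL3 alone and 0 were higher (edgeR, adjusted p under 0.05), where 6.46% of all tested loci were called, 2.47% higher and 3.99% lower. The share called lower was 5.81% over protein-coding loci and 9.33% over loci with a mean of at least 100 CPM. The opposite-strand EGLN3 locus was the 1 locus higher at an unadjusted p under 0.05, and DESeq2 called it higher. In 30 of 37 loci all libraries with RSL3 plus Fer-1 lay below all RSL3 libraries and in 1 above, against 11.7% and 11% of all tested loci. The median change was -0.14 over the 20 glycolysis loci, with 12 lower, and -0.26 over the other 17, with 9 lower, and 0.0027 over all tested loci. This comparison uses the same RSL3 libraries as the one with DMSO, so the directions of both comparisons are not independent.

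The largest called fall was in NDRG1, with a log2 change of -1.41 (SE 0.20, adjusted p = 0.00928). ADM changed by -1.01 (SE 0.13, adjusted p = 3.43e-06), SLC2A3 by -0.91 (SE 0.11, adjusted p = 0.000254), ALDOC by -0.73 (SE 0.14, adjusted p = 0.00101), ENO2 by -0.68 (SE 0.082, adjusted p = 1.95e-06) and VEGFA by -0.57 (SE 0.076, adjusted p = 1.83e-05). These loci were at 0.498 to 0.671 of their RSL3 level in mean CPM, except NDRG1, which was lower still at 0.377. BHLHE40 fell by 0.49 (adjusted p = 4.65e-06), SLC2A1 by 0.46 (adjusted p = 1.37e-06) and PFKFB4 by 0.32 (adjusted p = 0.0219). The coding EGLN3 locus fell by 0.97 (adjusted p = 8.54e-06), and with it in place of the opposite-strand locus 22 of 37 were lower.

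The remaining called members changed by smaller amounts. HIF1A changed by -0.26 (SE 0.037, adjusted p = 1.96e-05). P4HA1, MXI1, KDM3A and AK4 changed by -0.30, -0.29, -0.26 and -0.25 (adjusted p = 0.00133, 0.0494, 0.0165 and 0.00631). HK2 and HK1 changed by -0.34 and -0.28, ALDOA by -0.19, LDHA by -0.15, PGK1 by -0.15, PKM by -0.12 and GAPDH by -0.092 (adjusted p from 6.57e-05 for HK2 to 0.0371 for GAPDH). LDHA and GAPDH were thus lower with RSL3 plus Fer-1 than with RSL3, although neither had passed for RSL3 against DMSO.

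EPAS1, EGLN1, LOX, P4HA2, CA9, ANKRD37, ERO1A, SLC16A3, GPI, PFKL, PFKP, TPI1, PFKFB3, PGAM1 and ENO1 did not pass, nor did the opposite-strand EGLN3 locus. EPAS1 differed by -0.063 (adjusted p = 0.595) with a 95% interval of -0.17 to 0.042, which does not reach the whole of its RSL3 rise of 0.48. CA9 was at 4.42 ± 1.11 CPM with RSL3 plus Fer-1 and 23.4 ± 12.5 CPM with RSL3 (SD, n = 3 each), a log2 change of -2.4 (adjusted p = 0.0531) that missed the threshold although the groups did not overlap. Without RSL3 replicate 2 CA9 passed (adjusted p = 6.39e-06), and DESeq2 called it (adjusted p = 5.2e-05). The opposite-strand EGLN3 locus differed by 0.92 (adjusted p = 0.0996) and passed without RSL3 replicate 1 (adjusted p = 5.27e-13).

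**Figure D5:**
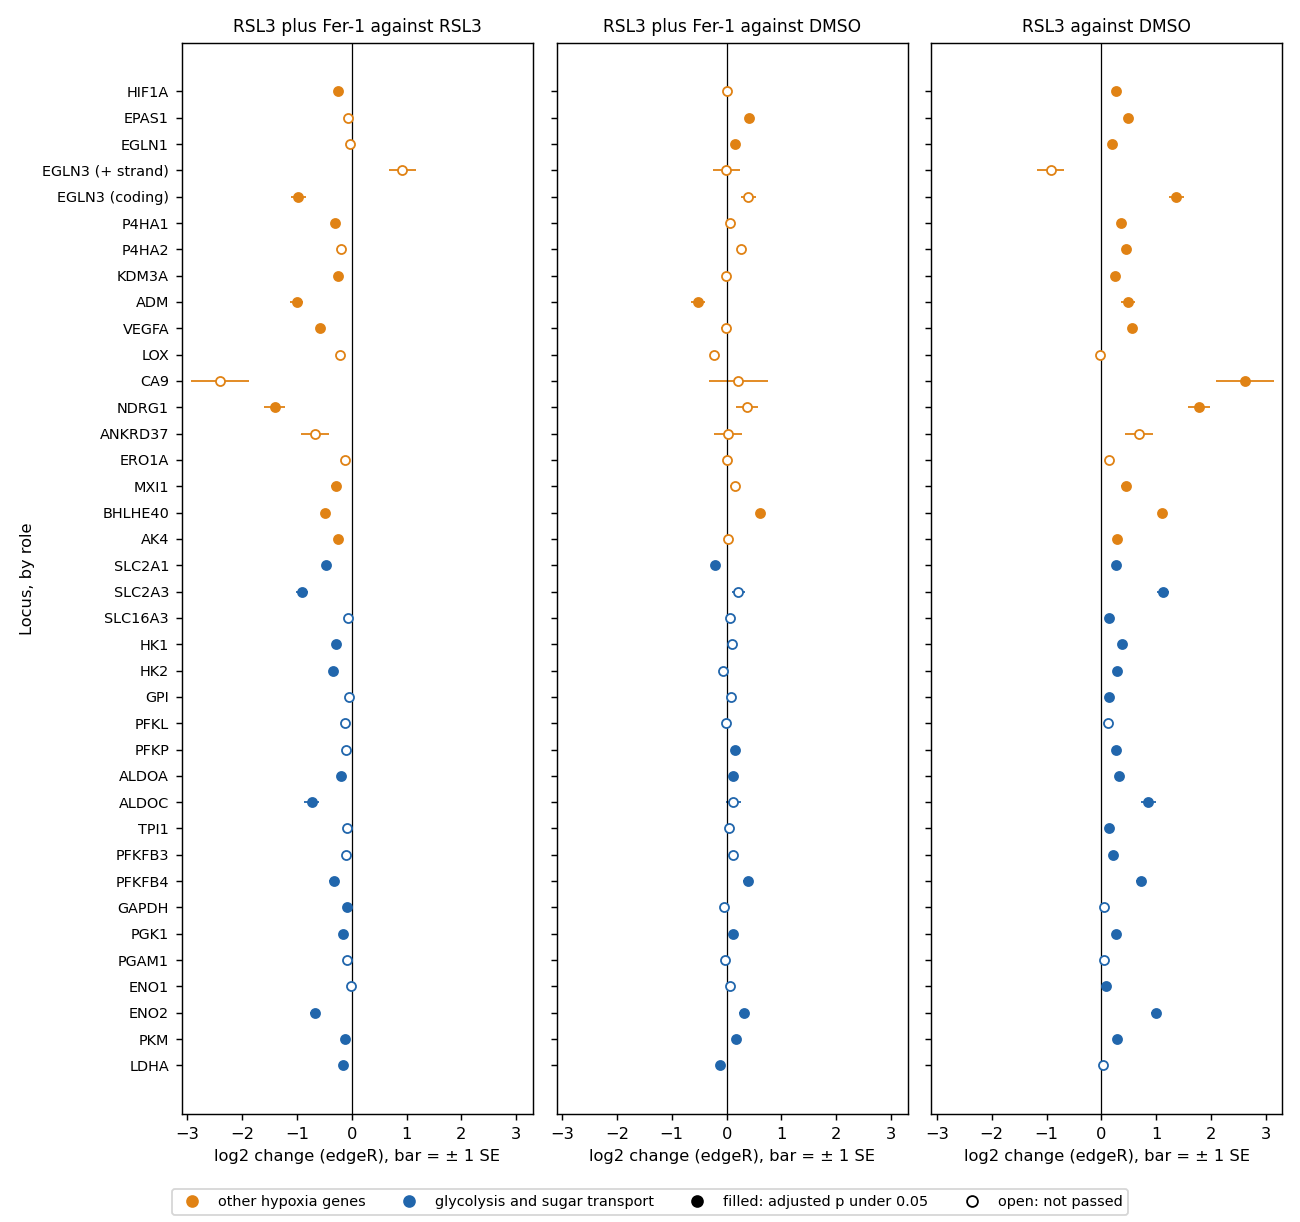
Log2 change of each tested locus (rows, by role) in the 3 comparisons (panels), with bars of 1 SE either side. Filled points passed an adjusted p of 0.05 and open points did not, orange for other hypoxia genes and blue for glycolysis and transport. Points lie mostly left of 0 for RSL3 plus Fer-1 against RSL3, on both sides of 0 for RSL3 plus Fer-1 against DMSO and mostly right of 0 for RSL3 against DMSO, where LOX and the + strand EGLN3 locus lie left.

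Of the 12 tested regulators, SENP1, a SUMO protease, was higher with RSL3 plus Fer-1 than with RSL3 (log2 change 0.22, adjusted p = 0.00961) and ARNT2 was lower, at -0.72 (SE 0.12, adjusted p = 0.000228). Of 17 further hypoxia targets 9 were lower and 0 higher, the same counts as at an unadjusted p under 0.05, with ANGPTL4 at -1.44 (SE 0.18, adjusted p = 2.79e-06) and BNIP3L at -0.81 (SE 0.11, adjusted p = 4.87e-05). Of 7 further glycolysis genes 1 was lower, HKDC1, at -0.75 (SE 0.15, adjusted p = 0.00217). The shares called over all tested loci were 2.47% higher and 3.99% lower.

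Calls lost by leaving out 1 library were those of KDM3A, MXI1, AK4, PFKFB4, GAPDH, PKM and NDRG1. MXI1 was lost in 7 of 9 such fits, all but those without DMSO replicate 2 or 3 (adjusted p up to 0.181). GAPDH was lost in 6 of 9, all but those without DMSO replicate 1 or 3 or RSL3 replicate 3 (up to 0.251). KDM3A was lost without RSL3 replicate 1 or RSL3 plus Fer-1 replicates 1 or 2 (0.0634 to 0.179), PFKFB4 without RSL3 replicates 1 or 3 or RSL3 plus Fer-1 replicate 1 (0.0992 to 0.159), PKM without RSL3 plus Fer-1 replicates 1 or 2 (0.0534 and 0.0856), AK4 without RSL3 replicate 1 (0.0758) and NDRG1 without RSL3 plus Fer-1 replicate 2 (0.0503). PFKP and TPI1 passed without RSL3 plus Fer-1 replicate 3 (0.0341 and 0.0311).

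The comparison of RSL3 plus Fer-1 with DMSO asks which levels differ from vehicle when both compounds are present. It shares libraries with both comparisons above. Of the 37 loci 9 were higher and 3 were lower, where 6.69% of all tested loci were called, 4.03% higher and 2.66% lower. Over protein-coding loci 10.3% were called, and over loci with a mean of at least 100 CPM 21.8%, 11.6% higher and 10.2% lower. The median change was 0.092 over the 20 glycolysis loci, with 6 higher and 2 lower, and 0.024 over the other 17, with 3 higher and 1 lower, and -0.00039 over all tested loci. All libraries with RSL3 plus Fer-1 lay above all DMSO libraries in 14 loci and below in 4, against 12.2% and 11.1% of all tested loci.

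BHLHE40 was the most raised member, at 0.61 (SE 0.064, adjusted p = 2.15e-07), followed by EPAS1 at 0.41 (SE 0.051, adjusted p = 3.14e-06) and PFKFB4 at 0.40 (SE 0.088, adjusted p = 0.00477). ENO2 was higher by 0.32 (adjusted p = 0.0169), PKM by 0.17 (adjusted p = 0.000257), PFKP by 0.16 (adjusted p = 0.00556), EGLN1 by 0.16 (adjusted p = 0.0374), ALDOA by 0.12 (adjusted p = 0.0127) and PGK1 by 0.12 (adjusted p = 0.0161). In contrast to these, ADM, SLC2A1 and LDHA were lower than in DMSO. ADM changed by -0.52 (SE 0.13, adjusted p = 0.00945), SLC2A1 by -0.21 (SE 0.053, adjusted p = 0.0155) and LDHA by -0.12 (SE 0.028, adjusted p = 0.00899), and for each the libraries with RSL3 plus Fer-1 lay below all DMSO libraries, as the values above show.

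The other 25 tested loci did not pass. HIF1A differed by 0.0091 (adjusted p = 0.947, 95% interval -0.066 to 0.084) and VEGFA by -0.018 (adjusted p = 0.952, 95% interval -0.18 to 0.14). The interval of NDRG1, -0.11 to 0.86 around a difference of 0.37 (adjusted p = 0.423), was wider, and its groups did not overlap. The coding EGLN3 locus also had groups that did not overlap, with a difference of 0.40 (adjusted p = 0.0718). NDRG1 passed in a fit of only the 6 libraries compared (adjusted p = 0.00363) and without RSL3 replicate 2 (adjusted p = 0.0283), and the coding EGLN3 locus passed without RSL3 replicate 2 (adjusted p = 0.0287) and with DESeq2 (adjusted p = 0.0446).

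In the lists around them, ARNT2 was higher with RSL3 plus Fer-1 than with DMSO, at 0.93 (SE 0.13, adjusted p = 1.35e-05), and was the only one of 12 tested regulators called. Among 17 further hypoxia targets, ANGPTL4 at 1.27 (SE 0.19, adjusted p = 5.05e-05) and GBE1 at 0.21 (adjusted p = 0.0196) were higher, and CITED2 at -0.50 (adjusted p = 0.012) and DDIT4 at -0.32 (adjusted p = 0.049) were lower. HKDC1 was higher, at 1.83 (SE 0.17, adjusted p = 1.80e-08), and no other of 7 further glycolysis genes passed. The shares called over all tested loci were 4.03% higher and 2.66% lower.

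Of these 12 calls, 8 were lost in at least 1 fit without 1 library. EGLN1 was lost without DMSO replicate 1 or 3 or any library with RSL3 plus Fer-1 (adjusted p up to 0.194), and SLC2A1 without DMSO replicate 1 or 2 or any library with RSL3 plus Fer-1 (up to 0.0731). PGK1 was lost without DMSO replicate 2 or RSL3 plus Fer-1 replicate 2 or 3 (up to 0.0981), ALDOA without DMSO replicate 3 or RSL3 plus Fer-1 replicate 2 or 3 (up to 0.0646), and ENO2 without DMSO replicate 1 or 2 or RSL3 plus Fer-1 replicate 2 (up to 0.0962). LDHA was lost without DMSO replicate 1 or RSL3 plus Fer-1 replicate 2 (0.0611 and 0.0998), and ADM and PFKP without RSL3 plus Fer-1 replicate 3 (0.0561 and 0.0645). P4HA2 passed without DMSO replicate 1 or RSL3 plus Fer-1 replicate 1 (0.035 and 0.022), and LOX without DMSO replicate 3 (0.0104). Without DMSO replicates 1 and 2, 4 loci were higher (EPAS1, P4HA2, BHLHE40 and PKM) and 0 lower, and the calls of ADM, SLC2A1 and LDHA were lost (adjusted p = 0.0799, 0.323 and 0.381).

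Among the RSL3 libraries the members differed in a shared direction, and the glycolysis loci of the other groups showed such an order too. RSL3 replicate 1 was the highest of its group in 13 of 20 glycolysis loci and 14 of 17 other hypoxia loci, and replicate 2 was the lowest in 14 and 13. With RSL3 plus Fer-1, replicate 3 was the highest in 16 of 20 and 10 of 17. In the DMSO group replicate 1 was the highest in 12 of 20 and 7 of 17. The order over all tested loci was not counted. The median log2 difference from the DMSO mean was 0.27, 0.14 and 0.26 in RSL3 replicates 1, 2 and 3 over the glycolysis loci, and 0.43, 0.31 and 0.42 over the other hypoxia loci. With RSL3 plus Fer-1 these medians were 0.067, 0.090 and 0.13 for glycolysis and 0.0089, 0.049 and 0.076 for the others. The median coefficient of variation in the RSL3 group was 3.86% for glycolysis loci and 8.46% for the others, against 8.65% over all tested loci. Members of one library share its RNA, so this is a description of 3 libraries in each group.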

How the data were processed

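Gene-level counts and FPKM values were deposited by the authors for 43444 loci in 9 libraries. Per the file headers, the table pairs each locus with its names, position and strand. The submitters' processing notes name cutadapt 1.9, FastQC and GRCh38. The aligner, counter and strand setting were not given in the sources used here. The deposited count columns hold whole numbers and were taken as raw counts. The deposited FPKM columns were used for a limit on low values and for levels per length. A locus with joined names holds the counts of several genes, which was the case for 9 of the 39 genes. Loci without a name (0.48 to 0.546% of counts) were left out.

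Loci with FPKM of at least 1 in at least 3 libraries (17297) were fitted in one model of 9 libraries with edgeR 4.0.16 in R 4.3.3 (TMM, robust quasi-likelihood F test), with Benjamini-Hochberg adjustment over all of them. SE is the absolute log2 change over the square root of F. The procedure was also run on simulated counts, drawn independently for each locus and library. Such counts hold no effect shared by the loci of a library, so that run cannot show errors from such effects. Libraries were not paired by replicate number, since deviations of libraries with the same number correlated little (-0.0497 to 0.0657). Even so, each library with RSL3 plus Fer-1 correlated best with the DMSO library of its own number. Replicates differed beyond sampling noise (chi-square per degree of freedom 9.01 to 15.6).

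Values in every library are printed for HIF1A, EPAS1 and the pair of each role group with the largest RSL3 change, for members called against the prevailing direction, and for the leading genes of 3 further lists. LOX, SPTSSA and the coding EGLN3 locus were added for context. The values of 1 gene of these lists are not reported here. Members and lists were chosen with earlier results of these data known. Alternatives were other scalings, DESeq2 1.42.0, limma 3.58.1 on log2(FPKM + 1) and log2(FPKM + 0.1), other limits on low values, a replicate block and left-out libraries. 3 of them, the coding EGLN3 locus, upper-quartile factors and leaving out DMSO replicates 1 and 2, were chosen after seeing the data.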

Additional observations from a re-analysis of the deposited data

How the results depend on the processing

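For RSL3 against DMSO, members higher outnumbered members lower and both medians stayed positive under every alternative run. Both limma fits lost 5 member calls, those of KDM3A, SLC16A3, TPI1, PFKFB3 and ENO1, and 24 members were higher at pseudocount 1 against 29 with edgeR. The count of members lower was 1 with library totals, upper-quartile factors, DESeq2 and both limma fits, in each case the opposite-strand EGLN3 locus, and the median of the other hypoxia genes was 0.33 with limma on log2(FPKM + 1). For RSL3 plus Fer-1 against RSL3, limma called 555 loci (pseudocount 1) and 525 (pseudocount 0.1) against 1117 with edgeR. Both limma fits lost 7 member calls there, those of KDM3A, MXI1, AK4, PFKFB4, GAPDH, PGK1 and PKM, and called CA9 lower. DESeq2 and both limma fits called 1 member higher. The median of the other hypoxia genes was -0.29 with single-name loci or with the coding EGLN3 locus. For RSL3 plus Fer-1 against DMSO, limma called 496 and 505 loci against 1157, with 3 members higher and 1 lower at either pseudocount, and single-name loci gave 3 members higher and a glycolysis median of 0.053. Without DMSO replicates 1 and 2, 1403 loci were called for RSL3 against DMSO against 2854, and 443 for RSL3 plus Fer-1 against DMSO, with 4 members higher, 0 lower and a median of the other hypoxia genes of 0.083. The cause of these shifts was not tested.

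Leaving out 1 library at a time gave, for RSL3 against DMSO, 2156 to 2805 loci called, 25 to 29 members higher, 0 to 1 lower, and medians of 0.22 to 0.27 for glycolysis and 0.38 to 0.46 for the others. For RSL3 plus Fer-1 against RSL3 it gave 747 to 1117 loci, 0 to 1 members higher, 16 to 21 lower, and medians of -0.17 to -0.12 and -0.32 to -0.22. For RSL3 plus Fer-1 against DMSO it gave 711 to 1211 loci, 5 to 10 members higher, 1 to 4 lower, and medians of 0.076 to 0.10 and 0.024 to 0.065.

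Members that changed sign were never called in either fit. In RSL3 plus Fer-1 against DMSO, HIF1A was at -0.0030 with library totals, -0.00062 and -0.00066 with limma at pseudocounts 1 and 0.1, and -0.0033 to 0.029 without 1 library. There the ranges without 1 library were -0.051 to 0.027 for the opposite-strand EGLN3 locus, -0.051 to 0.054 for KDM3A, -0.077 to 0.019 for VEGFA, -0.15 to 0.17 for ANKRD37, -0.026 to 0.065 for ERO1A and -0.049 to 0.056 for PFKL. Without DMSO replicates 1 and 2, KDM3A was at 0.083, CA9 at -0.13, ANKRD37 at -0.23 and PFKL at 0.039. In RSL3 against DMSO, LOX was at 0.20 without those libraries and at -0.11 to 0.072 without 1 library.

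With a replicate block, 2803 loci were called for RSL3 against DMSO with every member on the same side of the threshold, 1068 for RSL3 plus Fer-1 against RSL3 with 19 members lower (MXI1 and GAPDH lost, adjusted p = 0.0592 and 0.0506), and 1141 for RSL3 plus Fer-1 against DMSO (EGLN1 lost, adjusted p = 0.0514, LOX called, adjusted p = 0.0483). The opposite-strand EGLN3 locus was at 0.0051 there. Every library correlated best with its own number in RSL3 plus Fer-1 against DMSO only, which is a hint from the data and not from the design. STC1 and CA12, whose highest levels were 1.42 and 3.06 CPM, were left out by the limit on FPKM. With no limit on low values, edgeR called neither in any comparison. For RSL3 against DMSO, STC1 changed by 0.78 (SE 0.93, adjusted p = 0.756) and CA12 by -0.087 (SE 0.30, adjusted p = 0.97).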
